A study of Mus musculus with 6 samples.

Results

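Histone genes encode the proteins around which DNA is wound: H2A, H2B, H3 and H4 form the core of the nucleosome, and the linker histone H1 binds where DNA enters and leaves it. The set described here holds every gene of the deposited comparison table with a symbol of the H1, H2A, H2B, H3 or H4 gene series (H1f, H2ac, H2bc, H3c, H4c) or of the older Hist series. It comprises 67 of the 55487 genes counted, 9 for H1, 18 for H2A, 17 for H2B, 11 for H3 and 12 for H4. By position in mm10, 56 lie on chromosome 13, 8 on chromosome 3, and 1 each on chromosomes 6 (H1f10), 15 (H1f0) and 19 (H1f11-ps). The annotation calls 63 protein-coding and 4 pseudogenes (H1f11-ps, H2ac5-ps, H2ac14 and Hist1h2al). After the filter on low counts 65 were tested, and H1f11-ps and H1f6 were not. Another 9 genes with older histone symbols fall outside the rule and are not members, the most abundant being H2bu2 with 47975 counts over all libraries.

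The RNA came from retinas of C57BL/6 embryos at embryonic day 16.5, with the left and right eye of an animal combined and all 6 animals from 1 litter. The 3 animals labelled cKO carried floxed Foxp1 on both alleles (Foxp1 fl/fl) and Six3-Cre, a Cre transgene expressed in the early retina, and the 3 labelled control carried Foxp1 fl/fl without Cre. Control 1 and 2 and cKO 1 were labelled female, and control 3, cKO 2 and cKO 3 male. Ribosomal RNA was depleted in place of selecting polyadenylated RNA, so transcripts without a poly(A) tail were kept. Total counts per library lay between 23707761 and 25714620, with a biological coefficient of variation of 8.37% over the 17275 tested genes.

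A pair of checks went against the labels and stands ahead of every result. Levels are in CPM, the counts of a gene scaled to library size, with TMM factors. The libraries labelled control had 50.8, 41.1 and 46.2 CPM of Foxp1 itself and those labelled cKO 72.4, 75.5 and 68.8 CPM, a log2 fold change of 0.65 (SE 0.07, edgeR adjusted p 4.63e-05) towards the libraries meant to lack it. Reads from exons that Cre leaves in place still count towards the gene, and which exons are floxed is not given in the sources used here. The authors' deposited table gives Foxp1 a log2 fold change of -0.60. The sex-linked genes also went against the labelled sex in control 2, which has a male pattern, and cKO 2, which has a female one. In order, the libraries labelled control read female, male and male by these genes, the sexes labelled for the cKO libraries. Those labelled cKO read female, female and male, the sexes labelled for the control libraries. Whether the labels of the whole groups are exchanged was not tested. Each direction below is therefore that of the libraries labelled cKO over those labelled control, which may not be that of the genotype. Control 2 and cKO 2 are called doubted, for their own sex labels alone. Set against the sexes labelled for the other group, neither stands out, so the name need not mark a fault of these libraries. All 14 retina markers were measured, and their summed level was 4735 to 4978 CPM in the libraries labelled control and 4853 to 5133 CPM in those labelled cKO.

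Most histone genes are transcribed in S phase, when new nucleosomes are needed behind the replication fork, and lie in clusters. Their mRNAs carry no introns and, as a rule, no poly(A) tail: the message ends just past a short stem-loop that binds the stem-loop binding protein Slbp, and U7 small nuclear RNA guides the cut. H1f0 and H1f10 are H1 genes outside these clusters whose mRNAs are polyadenylated, and the replacement variants such as H3.3 are made throughout the cell cycle. In the embryonic retina the dividing progenitors are the source of replication-dependent histone mRNA.

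A stem-loop was searched after the stop codon as GG, 4 free bases, TTT, 5 free bases and CC (GGNNNNTTTNNNNNCC), with at least 5 of 6 facing bases able to pair. It was found in 39 of the 49 members whose GENCODE M21 model has sequence after the stop codon, against 2.02% of 21000 other protein-coding genes. The 6 examples below are the genes past the threshold and the highly expressed members of the H1, H3 and H4 families. The 16 capitals mark the stem and loop, written as DNA on the strand of the gene, in mm10.
H2bc8, chr13:23571838-23571863, plus strand: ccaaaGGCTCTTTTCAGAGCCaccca
H1f4, chr13:23621777-23621802, minus strand: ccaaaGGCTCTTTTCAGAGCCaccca
H1f2, chr13:23739507-23739532, plus strand: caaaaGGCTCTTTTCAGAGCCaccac
H3c7, chr13:23544927-23544952, plus strand: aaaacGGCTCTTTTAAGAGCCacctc
H4c4, chr13:23581945-23581970, plus strand: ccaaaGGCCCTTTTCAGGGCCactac
H4c14, chr3:96262934-96262959, minus strand: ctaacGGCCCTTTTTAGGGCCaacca
H2bc8 and H1f4 thus have the same stem-loop and the same flanking bases. The fourth capital was C in all 10 H4 genes with a match and T in all 29 matching genes of the other families. The form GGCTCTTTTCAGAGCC was the most frequent, in 22 genes. The 10 members with sequence after the stop codon but no match were H1f0 and H1f10 and also the cluster genes H1f1, H2bc4, H2bc21, H3c8, H3c13, H4c1, Hist1h2bq and Hist1h2br. Only the annotated sequence and this pattern were searched, so no match does not show that a stem-loop is absent.

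Histone messages took 2.33%, 2.38% and 2.42% of the counts in the libraries labelled control 1, 2 and 3, and 2.46%, 2.7% and 2.55% in those labelled cKO 1, 2 and 3. Summed over the 67 genes, the levels were 23465, 23716 and 24162 CPM against 24806, 27190 and 25199 CPM. All 3 libraries labelled cKO lay above all 3 labelled control, with cKO 2 the highest, and the mean was 8.2% higher (25731 ± 1280 against 23781 ± 353 CPM, SD, n = 3 each; log2 ratio 0.11). Without the doubted libraries the log2 ratio was 0.07, and without cKO 2 alone it was 0.07 as well. In bulk tissue, a different number of cells making a message and a different amount of message per cell cannot be told apart.

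The families did not share this difference evenly. H1 was at 6572, 6819 and 6828 CPM against 7370, 7723 and 7226 CPM, a mean 10.4% higher. H4 was at 5772, 5869 and 6215 CPM against 6362, 6977 and 6669 CPM, a mean 12.1% higher. Neither family overlapped between the labelled groups, and together they made up 28.6% (H1) and 25.5% (H4) of the summed histone level. H2B was at 3976, 4028 and 3892 CPM against 4048, 4564 and 4166 CPM, without overlap but with cKO 1 only just above control 2. H2A, at 2787, 2828 and 2757 CPM against 2700, 3172 and 2747 CPM, overlapped between the groups, and only cKO 2 stood above the libraries labelled control. H3 overlapped too, at 4359, 4171 and 4470 CPM against 4326, 4753 and 4391 CPM. The differences between families were not tested.

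**Figure D1:**
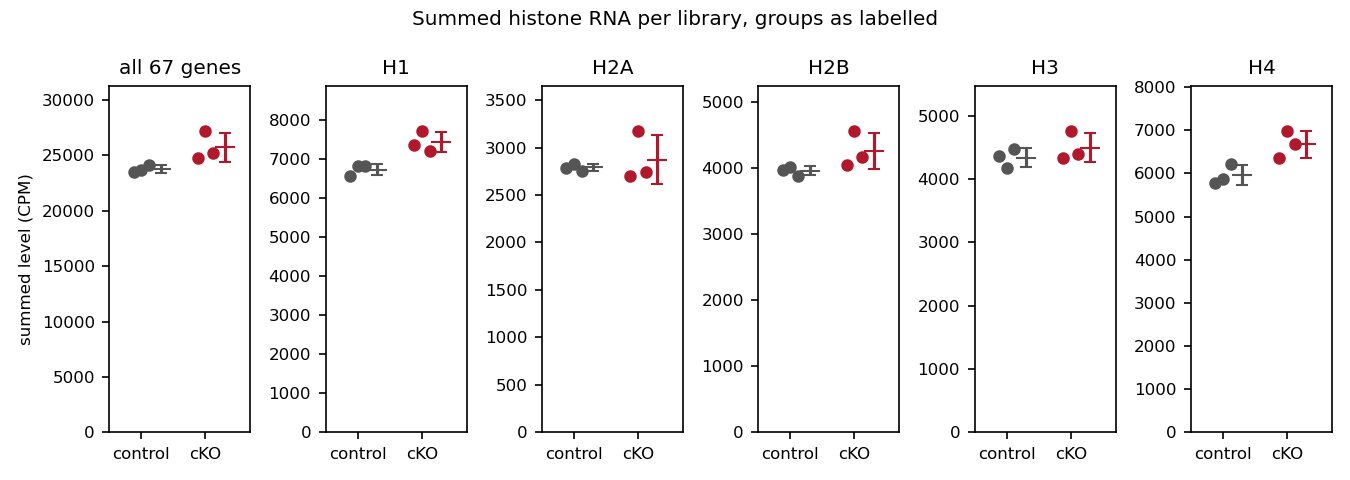
Summed level of histone RNA in CPM (vertical axis, from 0) in each library labelled control (grey) or cKO (red), for all 67 genes and by family; horizontal marks and bars give mean ± SD (n = 3). H1 and H4 separate the labelled groups, while H2A and H3 overlap, and the highest point in every panel is cKO 2.

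Gene by gene, 54 of 65 tested histone genes (83.1%) had a positive log2 fold change, against 50.1% of all tested genes. The median was 0.12 for the histone genes and 0.00 for all tested genes. Past an edgeR adjusted p of 0.05 were 2 histone genes, H2bc8 and H4c14, both higher in the libraries labelled cKO. Over all tested genes 0.781% passed in either direction and 0.295% passed as higher. At an unadjusted p of 0.05, 24 of the 65 histone genes passed, and so did 2845 of all 17275 tested genes. In 20 of 65 (30.8%) every library labelled cKO lay above every library labelled control, against 10.8% of all tested genes. In 0 the reverse held, against 9.3% of all tested genes. Members share sequence and possibly reads, so these counts are not counts of independent genes. DESeq2 called 13 of 54 histone genes higher and 0 lower, against 3.62% of all genes with an adjusted p called higher: H1f0, H1f1, H1f2, H1f3, H1f4, H2bc8, H2bc18, H3c11, H4c4, H4c6, H4c12, H4c14 and Hist1h2ap. In edgeR the number past the threshold turned on single libraries: it was 0 without control 1, cKO 2 or cKO 3, 3 without control 2 (H2bc8, H2bc9 and H3c7) and 4 without cKO 1 (H1f1, H2ac13, H2bc18 and H4c14). Without control 3 it was 8 (H1f0, H1f1, H2bc8, H3c11, H4c4, H4c9, H4c12 and H4c14), each of them higher. The number over all tested genes, 135 with every library kept, also changed widely with single libraries left out. Its range is given at the end, and these histone counts are not to be read apart from it.

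**Figure D2:**
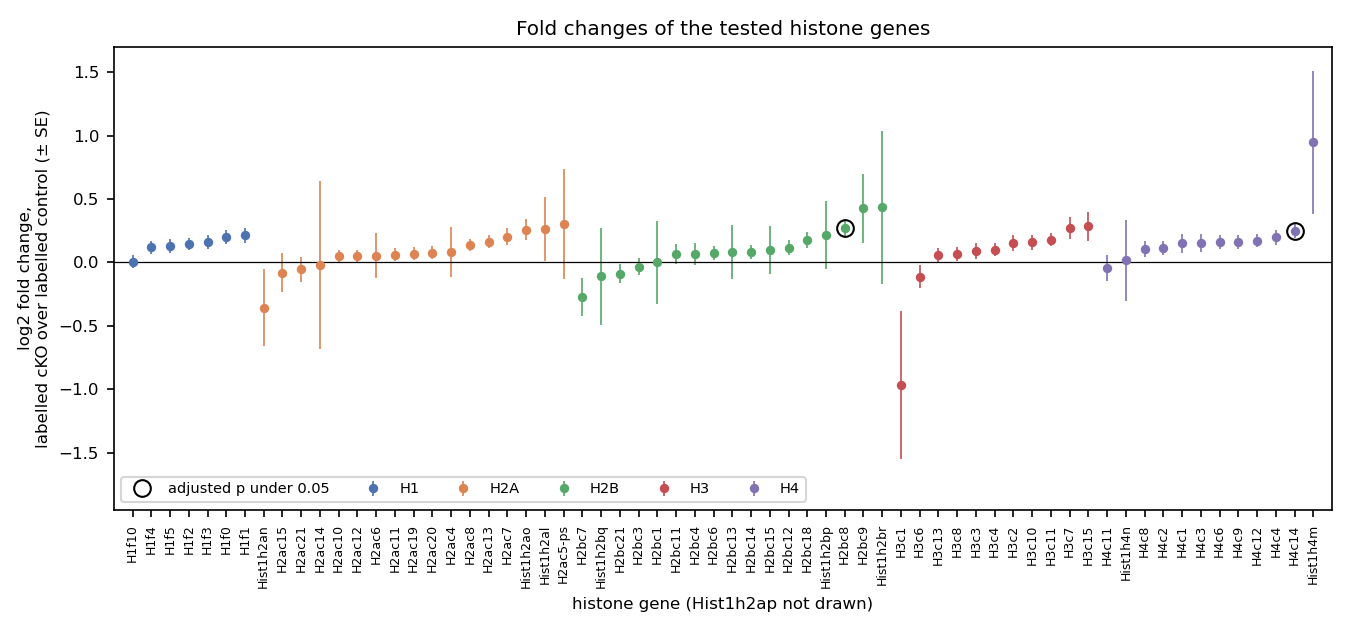
Log2 fold change of 64 tested histone genes, libraries labelled cKO over labelled control, with its standard error from edgeR, ordered within each family; Hist1h2ap (3.92) is not drawn. Most points lie slightly above 0, the circled H2bc8 and H4c14 passed the threshold, and the widest bars belong to H2ac14, Hist1h2br, H3c1 and Hist1h4m.

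H2bc8 (ENSMUSG00000058385, chr13:23571396-23572013, plus strand), a core histone H2B gene with a single exon, had 324, 399 and 371 CPM in control 1, 2 and 3 and 442, 453 and 428 CPM in cKO 1, 2 and 3, as labelled. The groups did not overlap, and control 1 was the lowest library. It rose from 365 ± 37.9 to 441 ± 12.4 CPM (SD, n = 3 each), a log2 fold change of 0.27 (SE 0.06, edgeR adjusted p 0.0487). Of all windows of 150 bases along its longest transcript, 39.0% also occur in another gene, among them H2bc7, H2bc9 and H2bc12, so reads there could be assigned to either copy or to none. The adjusted p was 0.173 without control 1, where the log2 fold change was 0.20, 0.0548 without cKO 1, 0.364 without cKO 2 and 0.127 without cKO 3, and 0.616 without both doubted libraries.

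H2bc8 faces the H2A gene H2ac8 head to head, with their annotated starts 176 bases apart, so both are transcribed away from 1 shared stretch of DNA. H2ac8 had 157, 167 and 157 CPM in control 1, 2 and 3 and 172, 178 and 180 CPM in cKO 1, 2 and 3, as labelled. Its groups did not overlap either, but it did not pass (log2 fold change 0.14, SE 0.05, edgeR adjusted p 0.147). The 250 bases before the RefSeq start of H2bc8 hold all of this shared stretch (GRCm38.p6, chr13:23571150-23571399, plus strand). Capitals mark ATTGG, the reverse complement of a CCAAT box, then CCAAT, the octamer ATTTGCAT and the TATA box TATAAA.
H2bc8 promoter: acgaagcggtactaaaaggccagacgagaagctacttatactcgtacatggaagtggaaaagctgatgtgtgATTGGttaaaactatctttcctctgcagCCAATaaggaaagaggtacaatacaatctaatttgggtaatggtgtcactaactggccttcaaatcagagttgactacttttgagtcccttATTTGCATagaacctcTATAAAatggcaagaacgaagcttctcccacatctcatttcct
The octamer begins 59 bases and the TATA box 43 bases before the RefSeq start.

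Across the set, 58 members matched a RefSeq promoter window of 250 bases before to 50 after the start, and the letters were searched on both strands. Each gene counted once, as having the letters if any of its windows did. CCAAT was found for every one of 15 H2A, 15 H2B and 9 H3 genes but for 3 of 11 H4 genes. Over all 27025 genes with a window the share was 41.1%. The octamer was found for 7 of 15 H2B and 5 of 15 H2A genes, for none of the H1, H3 or H4 genes, and for 1.97% of all genes. TATAAA was in 32 of 58 (55.2%) against 15.7%. TTTCGCGC, the letters of an E2F site, was in 9 of 58 (15.5%), all of them H2A or H2B genes, against 0.374%. Head-to-head pairs with starts within 1000 bases numbered 14, of which 13 joined an H2A to an H2B gene, so 1 window can hold the promoter of both, and windows of paired genes overlap. H4c14 and H2bc8, the genes past the threshold, stand in different clusters.

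H4c14 (ENSMUSG00000091405, chr3:96261682-96263311, minus strand), an H4 gene of the chromosome 3 cluster, had 483, 468 and 489 CPM in control 1, 2 and 3 and 530, 598 and 581 CPM in cKO 1, 2 and 3, as labelled. The groups did not overlap, and cKO 1 was nearest to the libraries labelled control. It rose from 480 ± 10.7 to 570 ± 35.4 CPM (SD, n = 3 each), a log2 fold change of 0.25 (SE 0.05, edgeR adjusted p 0.0371), and none of its windows of 150 bases occurs in another gene. The adjusted p was 0.0831 without control 1, 0.175 without control 2, 0.364 without cKO 2, 0.138 without cKO 3 and 0.714 without both doubted libraries, where the log2 fold change was 0.19.

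Of the H1 genes, 7 of 9 were tested, 7 had a positive log2 fold change and none passed in edgeR. At an unadjusted p of 0.05 there were 6, beside 2845 of all 17275 tested genes. H1 proteins compact the fibre of nucleosomes. H1f4, the most abundant member in counts, was at 1930, 1892 and 1917 CPM against 2068, 2136 and 2024 CPM (log2 fold change 0.12, edgeR adjusted p 0.209). H1f2 was at 1433, 1544 and 1511 CPM against 1639, 1694 and 1627 CPM (0.15, edgeR adjusted p 0.139). Both separated the labelled groups in every library, by a margin that was small beside their level. H1f1 was at 533, 544 and 548 CPM against 590, 688 and 607 CPM (0.21, edgeR adjusted p 0.0674). H1f3, at 906, 960 and 967 CPM against 1032, 1128 and 1014 CPM, had 0.16 (edgeR adjusted p 0.125). H1f5, at 655, 702 and 672 CPM against 716, 782 and 723 CPM, had 0.13 (edgeR adjusted p 0.213). These 5 are cluster genes, and in none of them did the groups overlap. Over all tested genes, 10.8% had every library labelled cKO above every library labelled control.

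Neither of the replication-independent H1 genes passed in edgeR. H1f0, a linker histone that accumulates in cells leaving the cycle, was at 703, 762 and 806 CPM against 898, 884 and 831 CPM (log2 fold change 0.20, SE 0.06, edgeR adjusted p 0.0762), with control 3 the nearest to the other group. H1f10 was at 413, 414 and 407 CPM against 426, 411 and 400 CPM (0.00, SE 0.05, edgeR adjusted p 0.98), the smallest spread of any member named, 1.07-fold from the lowest to the highest library. Whether H1f0 and H1f10 differ in response was not tested. Leaving both out, the summed histone level had a log2 ratio of 0.11.

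Of the 12 H4 genes 11 had a positive log2 fold change and 1 passed. In 6 every library labelled cKO lay above every library labelled control, as in 10.8% of all tested genes. H4 pairs with H3 at the centre of the nucleosome. Per kilobase of exon, H4c12 was the highest member of all 67, with 3135 CPM per kilobase, and H4c6 followed with 2096. Their annotated exons are short (312 and 391 bases, with no sequence after the stop codon for H4c12), which raises a value per kilobase, so this order depends on the gene models. H4c12 was at 910, 897 and 952 CPM against 1009, 1062 and 1038 CPM (log2 fold change 0.17, edgeR adjusted p 0.0888). H4c6 was at 769, 749 and 805 CPM against 823, 925 and 846 CPM (0.16, edgeR adjusted p 0.139). H4c4, with no window shared, was at 924, 959 and 1074 CPM against 1084, 1187 and 1119 CPM (0.20, edgeR adjusted p 0.0893). In each of the 3 the groups were separate, narrowly so for H4c4 between control 3 and cKO 1. H4c11 was the exception to the common sign, at 483, 615 and 648 CPM against 539, 584 and 572 CPM (-0.04); it is named because it stood apart, after its value was seen.

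Among 17 H2B genes 13 had a positive log2 fold change and, besides H2bc8, none passed. H2bc18, on chromosome 3 and with every window shared with another gene, was at 558, 610 and 583 CPM against 597, 715 and 667 CPM (log2 fold change 0.18, edgeR adjusted p 0.141). H2bc15 was at 517, 406 and 533 CPM against 544, 597 and 420 CPM (0.10, edgeR adjusted p 0.865), with control 2 and cKO 3 low. H2bc3 was at 468, 383 and 403 CPM against 390, 437 and 398 CPM (-0.03, edgeR adjusted p 0.873). Both overlapped between the groups. H2bc7 went the other way, at 213, 172 and 189 CPM against 130, 173 and 172 CPM (-0.28, edgeR adjusted p 0.476), with cKO 1 the lowest library.

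Of 18 H2A genes 14 had a positive log2 fold change and none passed in edgeR, and 1 was called by DESeq2. At an unadjusted p of 0.05 there were 5, beside 2845 of all 17275 tested genes. H2ac15 was the highest per kilobase in this family, with 1731 CPM per kilobase. It was at 615, 818 and 664 CPM against 584, 759 and 641 CPM (log2 fold change -0.08, edgeR adjusted p 0.871), with the libraries labelled control 2 and cKO 2 above the rest. H2ac4 was at 358, 254 and 333 CPM against 357, 372 and 273 CPM (0.09, edgeR adjusted p 0.894). Hist1h2an was at 309, 302 and 268 CPM against 141, 279 and 268 CPM (-0.36, edgeR adjusted p 0.666), where cKO 1 alone was low.

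Among the 11 H3 genes 9 had a positive log2 fold change and none passed. H3c7 was at 887, 1124 and 874 CPM against 1120, 1176 and 1185 CPM (log2 fold change 0.27, SE 0.09, edgeR adjusted p 0.173), with control 2 at the level of the libraries labelled cKO, and without control 2 it had 0.40 (edgeR adjusted p 0.0106). H3c6, at 923, 743 and 967 CPM against 775, 856 and 801 CPM, had -0.11 (edgeR adjusted p 0.603). H3c3, at 695, 663 and 754 CPM against 736, 819 and 698 CPM, had 0.09 (edgeR adjusted p 0.493). The groups overlapped in both.

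H3c1 and H2bc9 passed the threshold when the doubted libraries were left out, and in both genes control 2 stood apart from control 1 and 3. H3c1 had 410, 113 and 395 CPM in control 1, 2 and 3 and 164, 188 and 118 CPM in cKO 1, 2 and 3, as labelled (log2 fold change -0.97, SE 0.59, edgeR adjusted p 0.524). Control 2 was as low as the libraries labelled cKO, and control 1 and 3 were above 2 times the others. Without control 2 and cKO 2 the log2 fold change was -1.52 (SE 0.15, edgeR adjusted p 0.043), the 1 histone gene called lower in any fit made. That fit drops the library labelled control that was low, so it is no separate support for a lower level. H2bc9 was at 103, 165 and 89.6 CPM against 153, 176 and 153 CPM (0.43, SE 0.27, edgeR adjusted p 0.548), again with control 2 unlike control 1 and 3. Without the doubted libraries it had 0.66 (SE 0.07, edgeR adjusted p 0.000878), and it also passed without control 2 alone. H2bc9 lies head to head with H3c7, the starts 660 bases apart, and in both genes control 1 and control 3 were the lowest 2 libraries. The same held in 21 of 65 tested histone genes (32.3%) and in 8.28% of all tested genes, so it is not particular to this pair. H2bc9, like H2ac8, H2ac14 and Hist1h4n, was named after its values were seen.

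**Figure D3:**
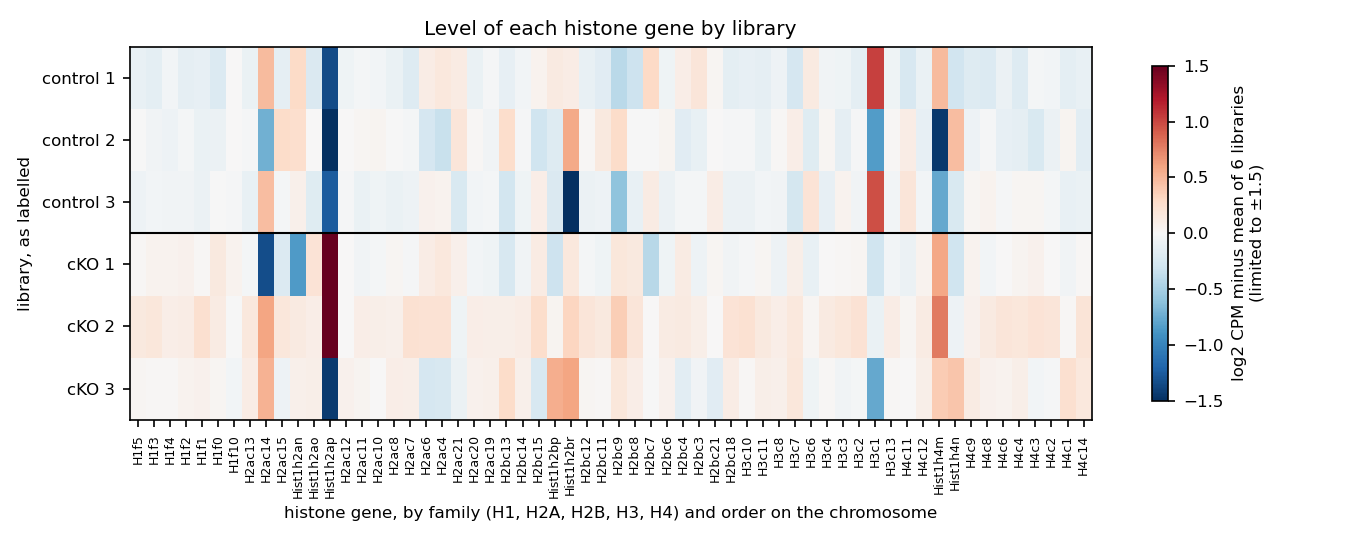
Level of 60 histone genes with a mean of at least 10 CPM (columns, by family and position) in each library (rows, as labelled), as log2 CPM minus the mean of the 6 libraries of that gene, limited to ±1.5. The row of cKO 2 is faintly red in most columns, and a few columns, such as Hist1h2ap, H3c1, H2ac14 and Hist1h4m, differ strongly between libraries of 1 labelled group.

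Several copies differed widely between libraries, also within 1 labelled group. Over genes with a mean of at least 10 CPM, the highest library exceeded the lowest by 1.5-fold or more in 10 of 60 histone genes (16.7%) and in 2.0% of 10431 genes. The ratio was 2-fold or more in 6 histone genes (10.0%) and in 0.508% of all such genes. Among the 21 histone genes with at least 50% of windows shared, 5 (23.8%) reached 2-fold, against 1 of 39 (2.56%) of the rest, and that 1 is H3c1. The median ratio was 1.28 in both sets, so the contrast lies in a few copies and not in the typical gene. Whether shared sequence has a part in this spread was not tested.

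Hist1h2ap, an H2A gene with 91.0% of its windows shared, had 6.32, 4.27 and 6.70 CPM in control 1, 2 and 3 and 159, 97.1 and 5.92 CPM in cKO 1, 2 and 3, as labelled. The libraries labelled cKO 1 and 2 were far above the rest, and cKO 3 was at the level of the libraries labelled control. The counts were 151, 106 and 159 against 4059, 2335 and 150 reads, so the gap is far beyond counting error. The log2 fold change was 3.92 (SE 1.35, edgeR adjusted p 0.282). H2ac14, annotated as a pseudogene with 89.7% of windows shared, was at 102, 44.4 and 101 CPM against 29.2, 110 and 105 CPM. Where Hist1h2ap was highest, in cKO 1, H2ac14 and Hist1h2an were lowest. This did not hold in the other libraries. In cKO 2, where Hist1h2ap was also high, H2ac14 was at its highest and Hist1h2an at 279 CPM. In control 2, where Hist1h2ap was lowest, H2ac14 was low too. Summed over the 13 H2A genes linked by shared windows the levels were 1725, 1550 and 1645 CPM against 1668, 1921 and 1623 CPM, a ratio of 1.24 from lowest to highest. Without Hist1h2ap and H2ac14, which are a small part of this sum, the ratio was 1.16.

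Hist1h4m was at 193, 51.2 and 82.2 CPM against 209, 239 and 181 CPM (log2 fold change 0.95, SE 0.56, edgeR adjusted p 0.517). It shares 85.8% of its windows, all with Hist1h4n, which was at 92.2, 155 and 96.2 CPM against 91.8, 107 and 150 CPM. The sum of both genes was 285, 207 and 178 CPM against 301, 345 and 330 CPM, which no longer overlapped between the groups. Hist1h2br, a low H2B gene with 83.0% of windows shared, was at 13.6, 18.6 and 3.75 CPM against 14, 15.8 and 19 CPM (0.44, SE 0.60, edgeR adjusted p 0.803), where control 3 alone was low.

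**Figure D4:**
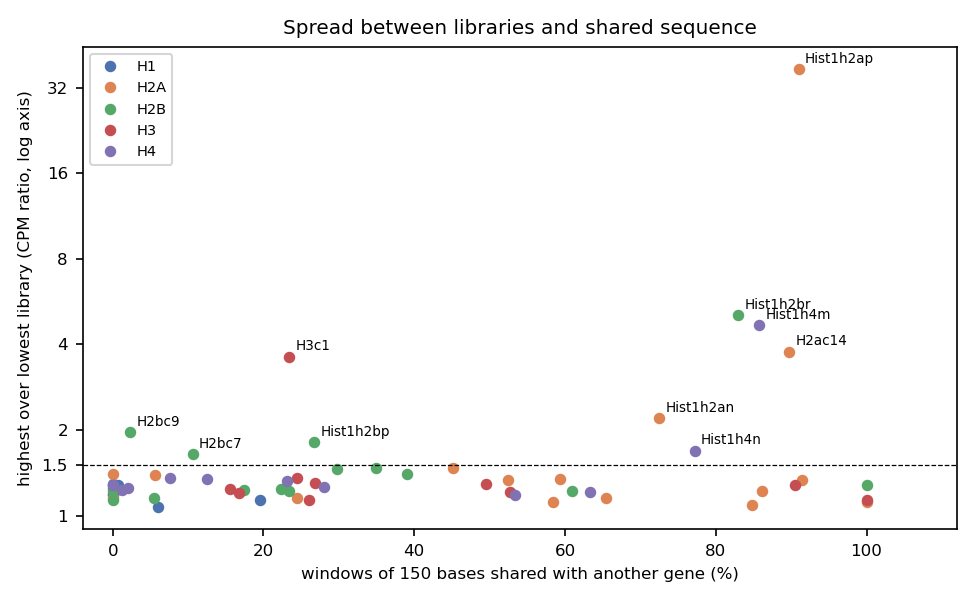
Ratio of the highest to the lowest library (vertical log axis) against the share of windows of 150 bases found in another gene (horizontal axis, %) for the 60 histone genes with a mean of at least 10 CPM; the dashed line marks 1.5. Of the 6 genes at 2-fold or more, 5 lie at 50% or more of windows shared, with Hist1h2ap at 37.2-fold.

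Exon length moved with the fold changes. Histone genes are short, with a median summed exon length of 528 bases against 3923 for all tested genes, and 58 of the 65 fell in the range of the shortest 2 deciles of other genes. In those deciles the median log2 fold change of the other genes was 0.07 and 0.08, and in the longest decile it was -0.09. Of the histone genes 45 of 65 lay above the median of their decile, by a median of 0.05 over all 65. After each library's length trend was taken out, 43 of 65 had a positive log2 fold change, the median was 0.05, and no histone gene passed. H2bc8 then had 0.20 (SE 0.06, edgeR adjusted p 0.167) and H4c14 had 0.17 (SE 0.05, edgeR adjusted p 0.121). By family, the median after removal was 0.07 for H1, 0.08 for H4, 0.02 for H3, 0.01 for H2B and 0.00 for H2A. Other short genes were also higher on median: the 1403 other tested genes under 1000 bases had a median of 0.05, and 55.8% of them were positive. The 17 histone genes of 1000 bases or more had a median of 0.15. Several of their models run far past the stem-loop, for example by 4884 bases in H1f3, 2010 in H2ac6 and 1861 in H2bc6. Their exon length is thus that of the annotation and may exceed that of the message, also in the length correction.

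**Figure D5:**
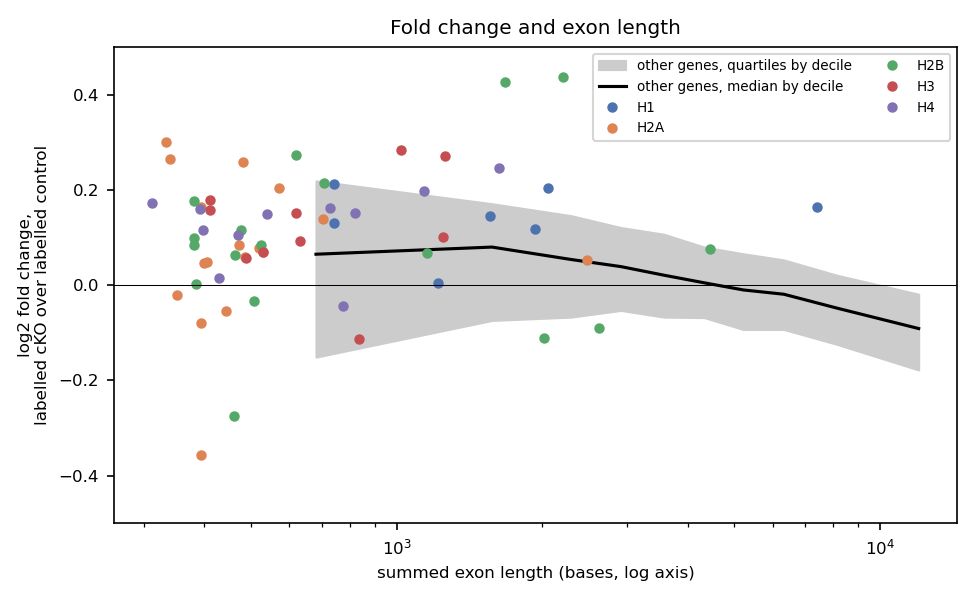
Log2 fold change (libraries labelled cKO over labelled control) against summed exon length (log axis, bases) for 62 tested histone genes, coloured by family; 3 beyond ±0.5 are not drawn (H3c1, Hist1h4m and Hist1h2ap). The line and grey band give the median and quartiles of other tested genes by decile of length, which fall from 0.07 to -0.09, and most histone points lie near or above the line.

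A list of histone variants had the same sign. It holds replacement histones such as H3.3 and H2A.Z, the centromere histone Cenpa, and also H2ax and H2bu2, which are not purely of that kind: H2ax makes a stem-loop message too, and H2bu2 carries an older Hist symbol. All 11 measured had a positive log2 fold change, with a median of 0.10 (0.05 after removal of the length trend), and none passed in edgeR. An unadjusted p under 0.05 was found for 4 of them and for 2845 of all 17275 tested genes. Their summed level was 3522, 3724 and 3816 CPM against 3898, 4156 and 4017 CPM, without overlap. The H3.3 gene H3f3a was at 656, 685 and 730 CPM against 742, 813 and 793 CPM (log2 fold change 0.18, edgeR adjusted p 0.0962). Its partner H3f3b, which encodes the same protein, was at 699, 753 and 790 CPM against 826, 877 and 828 CPM (0.18, edgeR adjusted p 0.104).

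Genes that make, cut and handle histone messages and proteins gave no call. Of 27 tested genes of histone gene transcription and processing, 9 had a positive and 18 a negative log2 fold change, with a median of -0.02, none past the threshold and 5 at an unadjusted p of 0.05. Slbp, the stem-loop binding protein, was at 70.0, 70.2 and 66.4 CPM against 71.5, 75.8 and 68.6 CPM (log2 fold change 0.06, edgeR adjusted p 0.585). Npat, the coactivator of histone genes, was at 45.8, 42.7 and 43.0 CPM against 43.1, 43.9 and 43.9 CPM (-0.01, edgeR adjusted p 0.978). Sympk, the scaffold of the cleavage complex, had -0.07 and the RNA-binding protein gene Celf1 -0.05. Rnu7, the U7 RNA gene of 62 bases, had 0 counts in every library, which allows an expected count of up to 3 in each. Whether RNA this short was captured was not tested, so its level cannot be read from these counts. Histone chaperones, 27 tested, were 14 positive and 13 negative (median 0.00, 8 at an unadjusted p of 0.05), with Set at 0.09 and Nap1l1 at 0.05. Beside these counts, 2845 of all 17275 tested genes had an unadjusted p under 0.05.

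None of the cell cycle genes listed passed. Of 36 S phase genes 23 had a positive and 13 a negative log2 fold change, with a median of 0.04 (0.02 after removal of the length trend), none past the threshold and 7 at an unadjusted p of 0.05. Their summed level overlapped between the groups, at 4149, 4311 and 4206 CPM against 4287, 4380 and 4218 CPM, with cKO 2 highest as for the histone genes. The replication helicase gene Mcm7 had 0.05 and Uhrf1, which maintains DNA methylation, -0.03. Of 20 genes of G2 and mitosis 8 were positive and 12 negative (median -0.01, 2 at an unadjusted p of 0.05). For both lists the share over all tested genes was 2845 of 17275 at an unadjusted p of 0.05. Mki67 was at 706, 629 and 482 CPM against 542, 490 and 466 CPM (edgeR adjusted p 0.511) and Top2a had -0.05. Among the retina markers Atoh7, which drives progenitors towards the ganglion cell fate, was the 1 of 14 past the threshold (0.30, edgeR adjusted p 0.0182).

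Markers of other tissues differed between libraries. Lens markers summed to 70.2 to 1035 CPM in the libraries labelled control and to 25.7 to 287 CPM in those labelled cKO, with all 10 tested genes negative. Erythroid markers summed to 75.2 to 148 against 111 to 181 CPM, with 6 of 7 positive. Pigment epithelium markers summed to 71.8 to 120 against 41.0 to 119 CPM, with 1 of 9 positive, and vessel and mesenchyme markers to 398 to 468 against 395 to 476 CPM, with 6 of 11 positive. None of these genes passed, all sums overlapped between the groups, and their part in the histone levels was not tested.

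The authors' deposited table gives 58 of the 65 tested histone genes the opposite sign. The share with the opposite sign over all tested genes is not given here, so this count does not set the histone genes apart. The authors' table holds an adjusted p for 56 of the 67. It lists 12 as lower in cKO past 0.05 and 0 as higher. Of all its genes with an adjusted p, 2.98% are listed as lower. By family the 12 are 4 H1, 5 H4, 2 H2B and 1 H3 gene. In the authors' deposited table H2bc8 has a log2 fold change of -0.31 (DESeq2 adjusted p 0.000688) and H4c14 one of -0.25 (DESeq2 adjusted p 0.00106), of like size to the values from the counts and of opposite sign, as for Foxp1.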

How the data were processed

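Bulk RNA was measured in 6 mouse retina libraries, separate animals per the labels. Per the submitters' processing notes, STAR 2.7.6a, cutadapt 2.8, DESeq2 1.32.0 and featureCounts 1.5.1 were used with mm10. Whether counting used the strand or kept reads with several matches is not given in the sources used here. Counts of near-identical or overlapping copies are uncertain for that reason. Per the file headers, the authors deposited raw whole-number counts for each gene. The authors' deposited comparison table holds, per the file headers, a mean normalized count (a signal value), a log2 fold change with its error, a test score and the p-value before and after adjustment; values from it were copied unchanged.

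Members, lists and alternatives were chosen with earlier results of these data known. Counts were fitted over all genes with edgeR 4.0.16 (R 4.3.3; TMM, filterByExpr, robust quasi-likelihood, labelled genotype alone, Benjamini-Hochberg adjustment at 0.05), and no test was run over the set. CPM use TMM-scaled library sizes. Named members were those past the threshold, the 3 with the highest CPM of each family, the 3 with the largest fold change in each direction and every tested H1 gene; from each related list, those past the threshold or else the 2 highest, with Slbp, Npat and Rnu7 added for their roles. Alternatives were DESeq2 1.42.0, limma-voom 3.58.1, other normalizations and filters, no robust estimation, labelled sex, the replicate block, each library left out, the doubted libraries left out, a lowess length correction (span 0.3) and library sizes without histone genes. Depth was 23707761 to 25714620 counts per library; no replicate pair was a duplicate (chi-square divided by its degrees of freedom 7.39 to 12.46). Gene models were GENCODE M21, promoters RefSeq GRCm38.p6. The steps were tested on simulated data.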

Additional observations from a re-analysis of the deposited data

How the results depend on the processing

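The summed histone level and the median fold change kept their sign under every alternative run; with the exon length trend removed the summed log2 ratio was 0.046 and the median 0.049. Over single libraries left out, the summed log2 ratio ranged from 0.07 to 0.14 and the median from 0.07 to 0.16. The count of 2 histone genes past the threshold became 1 with RLE, upper quartile normalization, a filter at 1 CPM, labelled sex as a covariate or library sizes without the histone genes, 8 with no filter, 13 with DESeq2, and 0 with limma-voom, without robust estimation or with the length trend removed; with single libraries left out it was 0 to 8. The count over all genes, 135, became 742 with no filter, 83 with a filter at 1 CPM, 566 with DESeq2, 13 with limma-voom, 10 without robust estimation, 38 with the length trend removed, 9 without the doubted libraries, and 19 to 778 with single libraries left out. The cause was not tested. The H2bc8 call was lost in 13 of 18 alternatives and the H4c14 call in 8.

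The labels give both groups the same replicate numbers, but same-numbered libraries did not deviate together in every pair (correlations 0.16, -0.07 and 0.29), and control 1 correlated best with cKO 2. A fit with the replicate number as a replicate block called 16 histone genes, all higher, and 1065 genes in all.

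Fold changes of 26 members, those named by the rule, were recomputed under the alternatives; of those that did not pass, the sign turned for 6. With single libraries left out the log2 fold change ran from -0.02 to 0.029 for H1f10, from -0.189 to 0.049 for H2ac15, from -0.048 to 0.214 for H2ac4, from -0.013 to 0.236 for H2bc15 and from -0.092 to 0.057 for H2bc3. Without the doubted libraries it was -0.134 for H2ac4, -0.124 for H2bc15 and -0.015 for H3c3, and with the length trend removed it was -0.078 for H1f10. Of these 26 members, Hist1h2br and, in 4 libraries, Hist1h2ap had under 1000 counts, and the others had more in every library.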
